A study of Mus musculus with 16 samples.

Results

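Interferon-stimulated genes are the genes that vertebrate cells switch on when interferon binds its receptors, and a set of 39 of them was followed here across 16 arrays of midbrain dopaminergic neuron preparations from the mouse. The genes were named by symbol, and each was read from 1 probe set, a group of probes on the array that reports 1 transcript region. Of the probe sets annotated with exactly 1 gene symbol, the one with the highest mean over all 16 arrays was taken, which gave values for 37 of the 39 genes, among 19938 genes in all. Isg15 was listed only on a probe set with several symbols, and Ifi44 was not analysed here. The set was selected on the values of these arrays, because such genes had been seen among the largest differences of the iPSC-derived cells from the primary neurons. Every value for that contrast is therefore a description of the genes chosen by it, and no test is attached to it.

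All arrays came from mice or cells of the genotype Pitx3GFP/+, in which 1 copy of the dopaminergic transcription factor gene Pitx3 carries a green fluorescent protein reporter, on a mixed C57BL/6 x 129/Ola background. There were 4 groups. The treated group comprised 5 arrays of neurons derived from induced pluripotent stem cells (iPSC) that had differentiated with human recombinant WNT1 and DKK3, secreted regulators of Wnt signalling. The control group comprised 5 arrays of iPSC-derived neurons labelled as controls. The labels call these arrays biological replicates numbered 1 to 5 in both groups, without stating whether each came from its own iPSC line or culture, so p-values between the groups measure the spread between these samples. The primary groups were dopaminergic neurons sorted for the reporter from the ventral midbrain, with 3 arrays at embryonic day E13.5 and 3 at E14.5. Those arrays are labelled technical replicates, so each stage counts as 1 sample. The control group, like every other, carried the reporter allele, and 1 disrupted copy of Pitx3 was thus common to all groups.

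Type I and type III interferons are secreted by cells that sense foreign nucleic acid. Their receptors activate the kinases Jak1 and Tyk2, which phosphorylate Stat2. A complex that holds Stat2 and Irf9 then binds a short promoter sequence, the interferon-stimulated response element, upstream of genes whose products block viral entry, degrade viral RNA, tag proteins with Isg15 or load peptides onto class I molecules. Type II interferon acts through a different sequence, the gamma-activated site. Neurons are known for low resting levels of many of these genes and for low class I antigen presentation.

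Promoters are shown first, for some genes of the set that bear, upstream of the start, the letters that the pathway's transcription factor complex is known to bind. They were picked for those letters and are not the genes with the largest differences. The core searched was GAAANNGAAA on either strand (TTTCNNTTTC on the other), in the RefSeq windows of build GRCm38.p6 that run from 250 bases before to 50 bases after each transcription start. Of the 32851 windows, 3.44% hold the core, against 41.2% (14 of 34) of the windows that belong to 30 of the 39 genes. In Ifitm3, Ddx58, Eif2ak2 and Ifih1 no core lies wholly within the 250 upstream bases. The windows of Lgals3bp and Oasl2 hold none. The letters TTCNNNGAA of the gamma-activated site were in 8.30% of all windows and in 20.6% (7 of 34) of those of the set. Both searches took either strand, and their matches overlapped in 24 windows in all and in 2 of the set. In each line the 250 bases upstream of the start are printed 5′ to 3′ on the gene's own strand, and capitals mark the core. The first 2 belong to neighbouring genes of the Ifit family, with 112 and 75 bases between the nearest core and the start. Ifit3 lies at chr19:34583279-34583528 on the plus strand and Ifit1 at chr19:34640639-34640888 on the plus strand. B2m is at chr2:122147437-122147686 on the plus strand, with 129 bases in between. Rsad2 is at chr12:26456453-26456702 and Cxcl10 at chr5:92348890-92349139, both on the minus strand, with 110 and 203 bases in between. Oas3, at chr5:120777660-120777909 on the minus strand, is shown because it holds the core while its groups overlapped.
Ifit3: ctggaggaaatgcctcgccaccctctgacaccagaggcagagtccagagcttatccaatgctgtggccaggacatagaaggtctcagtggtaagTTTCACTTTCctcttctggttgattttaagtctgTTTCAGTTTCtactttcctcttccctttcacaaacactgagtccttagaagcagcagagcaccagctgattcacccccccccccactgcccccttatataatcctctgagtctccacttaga
Ifit1: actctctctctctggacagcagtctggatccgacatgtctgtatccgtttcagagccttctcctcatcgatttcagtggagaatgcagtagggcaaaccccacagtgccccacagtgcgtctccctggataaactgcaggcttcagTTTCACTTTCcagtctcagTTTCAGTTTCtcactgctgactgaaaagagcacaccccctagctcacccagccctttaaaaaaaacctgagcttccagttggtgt
B2m: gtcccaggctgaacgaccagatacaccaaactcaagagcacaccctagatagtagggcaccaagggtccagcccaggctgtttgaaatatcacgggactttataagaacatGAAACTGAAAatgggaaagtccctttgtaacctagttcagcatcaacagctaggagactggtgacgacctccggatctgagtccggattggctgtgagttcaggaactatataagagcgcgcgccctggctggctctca
Rsad2: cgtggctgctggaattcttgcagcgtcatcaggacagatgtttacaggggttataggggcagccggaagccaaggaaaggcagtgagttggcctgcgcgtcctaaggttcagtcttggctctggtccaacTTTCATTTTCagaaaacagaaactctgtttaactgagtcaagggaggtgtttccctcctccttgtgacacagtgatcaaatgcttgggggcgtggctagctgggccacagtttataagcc
Cxcl10: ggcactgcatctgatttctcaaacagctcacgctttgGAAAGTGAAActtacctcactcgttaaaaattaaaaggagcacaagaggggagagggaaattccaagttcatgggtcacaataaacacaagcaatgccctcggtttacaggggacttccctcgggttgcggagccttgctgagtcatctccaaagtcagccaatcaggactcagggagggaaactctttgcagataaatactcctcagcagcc
Oas3: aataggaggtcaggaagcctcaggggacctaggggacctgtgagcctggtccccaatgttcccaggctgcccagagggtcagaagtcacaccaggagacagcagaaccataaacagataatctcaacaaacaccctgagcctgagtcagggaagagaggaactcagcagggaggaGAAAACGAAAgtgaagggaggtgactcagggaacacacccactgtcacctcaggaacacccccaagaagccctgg
The core is present in both orientations, as GAAA-first letters in B2m, Cxcl10 and Oas3 and as the reverse complement in the Ifit genes and Rsad2. A match of letters is a description and not a measured binding site.

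The deposited values were log2 signals, and array medians over all probe sets ran from 5.85 to 6.02. No detection calls accompanied the values. Marker genes were used to check the labelled cell type. The mean log2 level of 9 midbrain dopaminergic markers was 9.49 to 9.92 on the primary arrays, 5.75 to 7.87 on the treated arrays and 5.84 to 7.51 on the control arrays. The iPSC-derived arrays numbered 5 stood apart at the top of these ranges, and their mean over 10 pluripotency markers was the lowest (5.41 and 5.48, against 7.03 to 8.36 on the other iPSC-derived arrays). Mesenchymal markers were at least 2-fold higher without overlap in the iPSC-derived arrays for 10 of 11 genes, with a mean level of 8.61 to 9.65 against 5.56 to 5.90, and so were 8 of 10 astrocyte and radial glia markers, of which 1 other was lower by that rule. For the labelled cell type, 8 of 9 dopaminergic and 11 of 11 general neuronal markers were lower by the same rule. In bulk samples fewer cells of a type and less RNA per cell cannot be told apart. The part of this difference in cell make-up in the values below was not tested.

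Of the 37 interferon-stimulated genes, 31 were at least 2-fold higher in the 10 iPSC-derived arrays than in the primary neurons with no overlap between arrays, led by Ifitm3, Lgals3bp and Ifit3. Over all genes 9.85% met that rule. None of the set was at least 2-fold lower without overlap, which 7.14% of all genes were. At 4-fold, 26 of the set met the rule, against 3.72% of all genes. At 16-fold 10 did, against 0.456% of all genes. The set's median difference between iPSC-derived and primary arrays was 2.85 on the log2 scale, and that of all genes was -0.10. It was 2.82 for the treated and 2.81 for the control arrays, groups set against the same primary samples. These shares restate how the genes were selected, and nothing further is read from them. The count of 31 was the same without both arrays numbered 5 and without both arrays numbered 4.

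**Figure D1:**
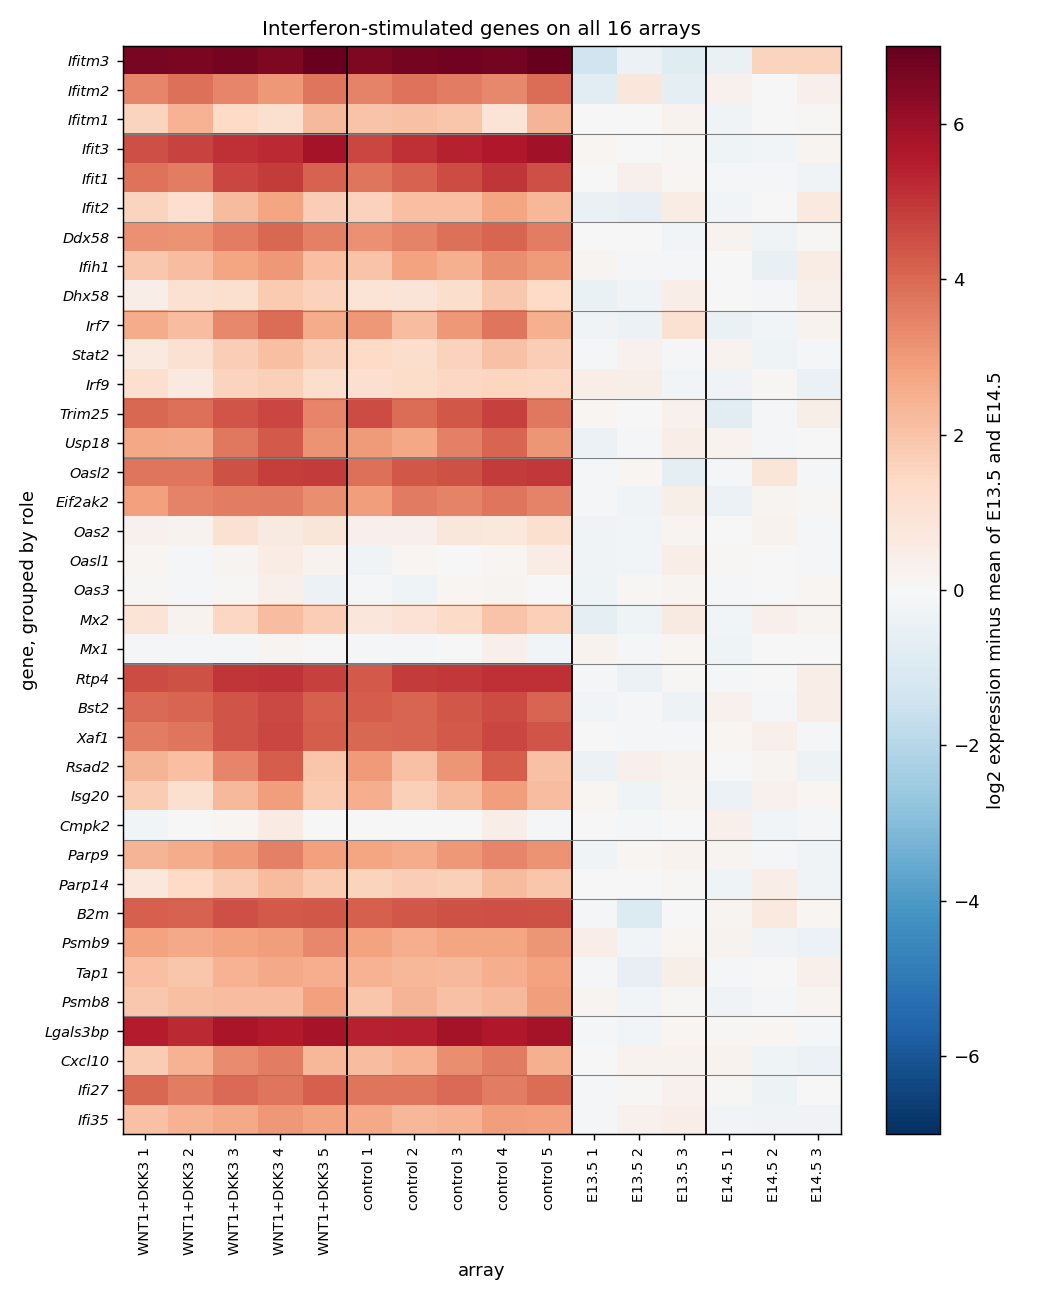
The 37 interferon-stimulated genes (rows, grouped by role) on the 16 arrays (columns), coloured by log2 expression minus the mean of the E13.5 and E14.5 means. Rows such as Ifitm3, Ifit3 and Lgals3bp are dark red on all 10 iPSC-derived arrays, while Oas3, Mx1, Cmpk2 and Oasl1 stay pale throughout.

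The Ifitm family, small membrane proteins that hinder the fusion of viruses with cell membranes, contained the gene with the largest difference. Ifitm3 read 11.80, 11.79, 11.90, 11.69 and 12.10 on treated arrays 1 to 5, 11.72, 11.90, 11.94, 11.88 and 12.24 on control arrays 1 to 5, 3.79, 4.76 and 4.33 at E13.5 and 4.69, 6.76 and 6.76 at E14.5. Every iPSC-derived array lay above every primary array, and the means differed by 6.72. That size is not an exact fold, because all E13.5 arrays and E14.5 array 1 lay below the lower quartile of all genes, which was at least 4.84 on every array, and the stage means were 4.29 and 6.07. The iPSC-derived arrays were also close to each other, with a standard deviation (SD) of 0.16 in the treated and 0.19 in the control group (n = 5 each). Ifitm2 read 10.78, 11.21, 10.78, 10.42 and 11.11 on the treated, 10.84, 11.18, 10.93, 10.72 and 11.30 on the control, 6.59, 8.19 and 6.67 on the E13.5 and 7.67, 7.38 and 7.73 on the E14.5 arrays. The groups were again apart, by 3.56 in the mean, and in the treated and in the control group the array numbered 4 was the lowest. Ifitm1 read 8.16, 9.02, 7.99, 7.72 and 8.84 on the treated, 8.59, 8.62, 8.53, 7.56 and 8.97 on the control, 6.56, 6.54 and 6.85 on the E13.5 and 6.33, 6.60 and 6.66 on the E14.5 arrays. Its difference of 1.81 was the smallest of the family, and the arrays numbered 4 were again the lowest of each iPSC-derived group. These genes are close copies of each other, and signal of one can enter another's probe set. The other probe set of Ifitm1 gave a difference of 2.77, and the 3 of Ifitm2 gave 3.25 to 3.67.

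In the Ifit family, the Ifit1 protein binds RNA with viral ends and blocks its translation. Ifit3 read 9.74, 9.99, 10.36, 10.48 and 11.08 on the treated arrays and 9.92, 10.36, 10.64, 10.84 and 11.13 on the control arrays, against 5.40, 5.29 and 5.34 at E13.5 and 4.95, 5.08 and 5.44 at E14.5. The arrays numbered 5 were the highest and those numbered 1 the lowest in both iPSC-derived groups, and the difference from the primary means was 5.20. Ifit1 read 8.57, 8.36, 9.42, 9.67 and 8.88 on the treated arrays and 8.52, 8.91, 9.31, 9.76 and 9.28 on the control arrays, against 4.77, 5.09 and 4.92 at E13.5 and 4.60, 4.66 and 4.54 at E14.5. Here the arrays numbered 4 were the highest, and the difference was 4.31. Ifit2 had the smallest difference of the family, 2.03, with iPSC-derived arrays from 6.28 to 7.85 and primary arrays from 4.53 to 5.80. Mouse Ifit genes have near-identical neighbouring copies, so the probe sets may report more than 1 copy.

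The cytoplasmic sensors of viral RNA were higher in the iPSC-derived cells as well. Ddx58, which encodes RIG-I, had 8.06 to 9.01 on the iPSC-derived and 4.69 to 5.14 on the primary arrays, a difference of 3.57. For Ifih1, which encodes MDA5, the ranges were 6.72 to 8.04 and 4.29 to 5.31, and the difference was 2.54. Dhx58, whose product LGP2 modulates the other sensors, was the gene just inside the 2-fold rule, since its lowest iPSC-derived array (5.28) exceeded its highest primary array (5.27) by the smallest margin. Mx2 was just outside it, with a lowest iPSC-derived array of 4.95 and a highest primary array of 5.31 despite a mean difference of 1.34.

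Among the transcription factors, Irf7 amplifies the interferon response and Stat2 and Irf9 are parts of the complex that binds the response element. Irf7 read 7.73, 7.29, 8.46, 9.04 and 7.70 on the treated arrays and 8.13, 7.29, 8.16, 8.86 and 7.60 on the control arrays, against 4.90, 4.69 and 6.16 at E13.5 and 4.67, 4.95 and 5.37 at E14.5. The iPSC-derived arrays spread over more than a log2 unit in both groups, with number 4 on top, and all exceeded the primary arrays, by 2.90 in the mean. Stat2 read 7.63, 8.04, 8.65, 9.04 and 8.62 on the treated arrays and 8.35, 8.18, 8.55, 9.00 and 8.68 on the control arrays, against 6.89, 7.26 and 6.83 at E13.5 and 7.18, 6.65 and 6.89 at E14.5. Number 4 was again the highest in each iPSC-derived group, and the difference was 1.52. Irf9 read 7.31, 6.81, 7.69, 7.81 and 7.36 on the treated arrays and 7.30, 7.45, 7.59, 7.65 and 7.60 on the control arrays, against 6.61, 6.53 and 5.93 at E13.5 and 5.88, 6.23 and 5.65 at E14.5. Its lowest iPSC-derived array, treated array 2, lay close to the highest E13.5 array, and the difference was 1.32. Of the Isg15 conjugation genes, Usp18, the protease that removes Isg15 and damps receptor signalling, differed by 3.28. Trim25, a ligase that activates RIG-I, differed by 4.17.

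The oligoadenylate synthetase family makes a second messenger that activates an RNA-degrading enzyme, and it was split. Oasl2 read 8.94, 8.93, 9.65, 10.01 and 10.07 on the treated arrays and 9.04, 9.55, 9.67, 10.09 and 10.12 on the control arrays, against 5.04, 5.33 and 4.53 at E13.5 and 5.11, 6.02 and 5.10 at E14.5. The groups were far apart, by 4.42 in the mean, and number 5 was the highest in each iPSC-derived group. Oas3 read 5.05, 4.84, 5.04, 5.31 and 4.58 on the treated arrays and 4.88, 4.69, 5.08, 5.18 and 4.99 on the control arrays, against 4.69, 5.06 and 5.16 at E13.5 and 4.89, 4.94 and 5.11 at E14.5. Its arrays overlapped throughout, and the difference of the means was -0.01. Oasl1, which limits Irf7 translation, read 6.79, 6.54, 6.85, 7.18 and 6.90 on the treated arrays and 6.40, 6.76, 6.70, 6.76 and 7.16 on the control arrays, against 6.42, 6.46 and 7.09 at E13.5 and 6.72, 6.62 and 6.56 at E14.5. E13.5 array 3 exceeded all but 2 of the iPSC-derived arrays, and the difference was 0.16. Oas2 overlapped too, with 5.84 to 6.70 on the iPSC-derived and 5.35 to 5.86 on the primary arrays. Eif2ak2, the RNA-activated protein kinase R that stops translation, differed by 3.40 without overlap.

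Mx proteins are dynamin-like GTPases that trap viral particles, and Mx1 is known to be disrupted in many laboratory mouse strains. Mx1 read 3.93, 4.01, 3.96, 4.28 and 4.07 on the treated arrays and 4.03, 3.98, 4.12, 4.44 and 3.92 on the control arrays, against 4.33, 4.00 and 4.22 at E13.5 and 3.81, 4.07 and 4.09 at E14.5. All groups overlapped, and each of the 16 values lay below the lower quartile of all genes on its array, which ran from 4.84 to 5.11. It was the only one of the 37 genes placed there on every array.

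Among the other antiviral effectors, Rtp4, which binds viral RNA, read 9.35, 9.22, 9.78, 9.86 and 9.58 on the treated arrays and 9.08, 9.68, 9.76, 9.90 and 9.92 on the control arrays, against 4.69, 4.38 and 4.89 at E13.5 and 4.73, 4.78 and 5.26 at E14.5. Control array 1 was the lowest of the iPSC-derived arrays and still far above all primary arrays, and the difference was 4.82. Bst2, or tetherin, which holds budding virus at the cell surface, read 10.60, 10.74, 11.06, 11.27 and 10.83 on the treated arrays and 10.89, 10.73, 11.02, 11.25 and 10.75 on the control arrays, against 6.46, 6.58 and 6.32 at E13.5 and 6.98, 6.54 and 7.11 at E14.5. The difference was 4.25, with the arrays numbered 4 highest. Cmpk2, a nucleotide kinase and the genomic neighbour of Rsad2, read 5.34, 5.56, 5.69, 6.11 and 5.50 on the treated arrays and 5.58, 5.57, 5.58, 6.00 and 5.42 on the control arrays, against 5.52, 5.42 and 5.58 at E13.5 and 5.90, 5.32 and 5.46 at E14.5. Its groups overlapped, with a difference of 0.10, although the arrays numbered 4 were the highest of both iPSC-derived groups. Rsad2, or viperin, which makes a chain-terminating nucleotide, differed by 2.85, Xaf1 by 4.20 and the exonuclease gene Isg20 by 2.15, all without overlap. The ADP-ribosyltransferase genes Parp9 and Parp14 differed by 2.92 and 1.71, also without overlap.

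**Figure D2:**
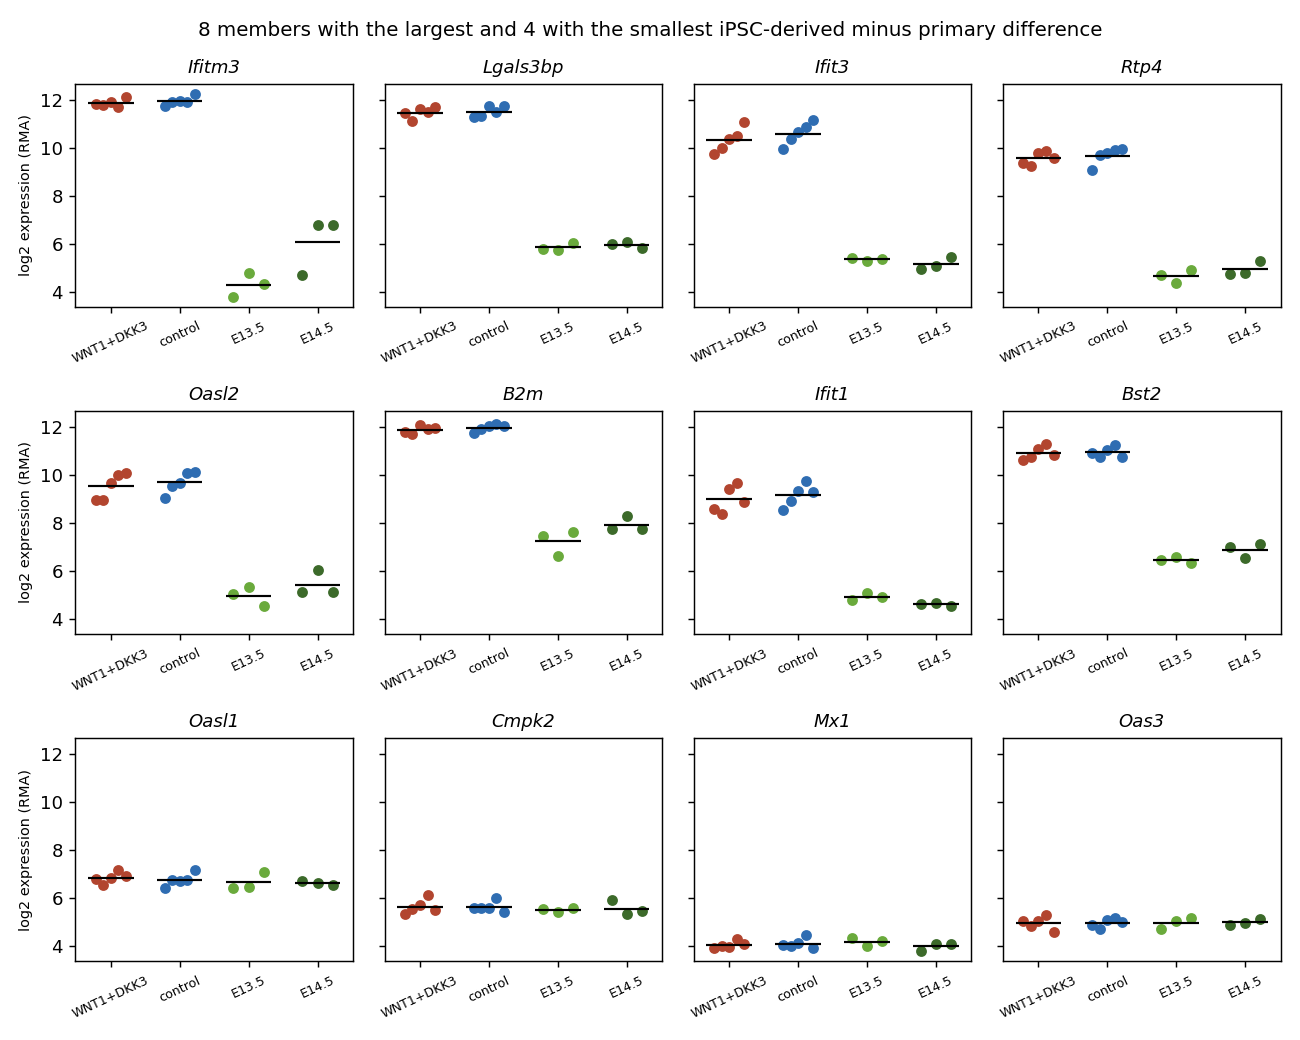
Log2 expression on each array (points) and group mean (line) of the 8 interferon-stimulated genes with the largest and the 4 with the smallest difference between iPSC-derived and primary arrays, for 5 treated, 5 control, 3 E13.5 and 3 E14.5 arrays. In the upper 8 panels all iPSC-derived points lie above all primary points, and in the lowest 4 panels they overlap.

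All 4 antigen presentation genes were higher. B2m, the invariant chain of class I molecules, read 11.78, 11.70, 12.06, 11.89 and 11.94 on the treated arrays and 11.75, 11.91, 12.01, 12.10 and 12.03 on the control arrays, against 7.46, 6.63 and 7.61 at E13.5 and 7.74, 8.28 and 7.72 at E14.5. The iPSC-derived values were tightly grouped (SD 0.14 and 0.13, n = 5 each), and the difference was 4.35. Differences were 2.86 and 2.27 for Psmb9 and Psmb8, subunits of the immunoproteasome, and 2.41 for Tap1, a chain of the peptide transporter. Of the secreted proteins, Lgals3bp, a glycoprotein that binds galectins, read 11.42, 11.10, 11.61, 11.47 and 11.67 on the treated arrays and 11.26, 11.32, 11.73, 11.48 and 11.72 on the control arrays, against 5.78, 5.72 and 6.04 at E13.5 and 5.98, 6.06 and 5.80 at E14.5. No array of one kind came near the other kind, and the difference was 5.58 (47.9-fold). Cxcl10, a chemokine for T cells, differed by 2.75, with 7.42 to 9.23 on the iPSC-derived and 5.22 to 5.87 on the primary arrays. Ifi27 and Ifi35 differed by 3.84 and 2.62.

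Genes with and without the response element core both covered a wide range of differences. Among measured genes with a promoter window, the 13 with the core ranged from -0.01 (Oas3) to 6.72 (Ifitm3), with a median of 3.56. The 15 without it ranged from 0.10 (Cmpk2) to 5.58 (Lgals3bp), with a median of 2.41. The ranges overlap, and these differences are the values that chose the genes.

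The iPSC-derived arrays had a larger median SD for these genes than for all genes. Of the set, 30 lay above the median of all genes on every iPSC-derived array, as did 42.2% of all genes. No comparison was made with genes of a like level. The median SD over the set was 0.39 in the treated and 0.33 in the control group, against 0.20 and 0.19 for all genes. Rsad2 was the most variable in both groups, with SDs of 0.97 and 0.91. It read 7.82, 7.54, 8.85, 9.66 and 7.39 on treated arrays 1 to 5 and 8.39, 7.46, 8.52, 9.67 and 7.48 on control arrays 1 to 5. The array numbered 4 was the highest in either group, and those numbered 2 and 5 were low in both. The same order at the top was then counted for every gene, a pattern chosen after the values were seen and given without a test. For 23 of the 37 interferon-stimulated genes (62.2%) number 4 was the highest of the treated and also of the control arrays, against 10.5% of all genes. The number was 20 after a further quantile normalization, where it was 9.02% of all genes, and 23 after centring arrays on their median or averaging a gene's probe sets.

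Cxcl10 was one of them, with 7.42, 8.06, 8.95, 9.19 and 7.95 on the treated and 7.78, 8.08, 8.90, 9.23 and 8.10 on the control arrays. Number 1 was the lowest and number 4 the highest in both groups. Usp18 read 8.31, 8.25, 9.30, 9.90 and 8.76 on the treated and 8.61, 8.33, 9.13, 9.70 and 8.70 on the control arrays, with number 4 on top and number 2 at the bottom. Psmb8 read 7.51, 7.71, 7.80, 7.78 and 8.48 on the treated and 7.56, 8.02, 7.67, 7.91 and 8.57 on the control arrays, and here number 5 was clearly the highest in both. Number 5 was on top of both groups for 5 of the 37 genes, Ifit3, Ifitm3, Oasl2, Psmb8 and Psmb9, and for 2899 of all 19938 genes, a like share. Number 4 was the lowest of both groups for Ifitm1 and Ifitm2 only, against 6.87% of all genes. Number 1 was the lowest of both for 7 genes, where the share of all genes was 2.99%, and number 2 for 5, where it was 8.50%. The median deviation of the set from its group mean was 0.44 on treated array 4 and 0.34 on control array 4, and -0.31 and -0.24 on the arrays numbered 1, while that of all genes stayed between -0.03 and 0.03.

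Markers of other cell types moved with these arrays to different degrees. The arrays numbered 4 had the lowest mean mesenchymal level of each iPSC-derived group, 8.61 and 8.76. Their mean level of general neuronal markers was also the lowest of each group, 6.19 and 6.25. The mean over 12 microglia and macrophage markers was 5.41 to 5.86 on the treated, 5.43 to 5.79 on the control and 5.41 to 5.89 on the primary arrays. Of the 12, Cd68 and Csf1r alone were at least 2-fold higher in the iPSC-derived arrays without overlap, and they were also the ones with number 4 highest in both groups. Csf1r reached 9.50 and 9.35 on the arrays numbered 4 against 6.61 and 7.19 on those numbered 2. Tyrobp and P2ry12 went the other way, with every iPSC-derived array below every primary array, though by less than the 2-fold rule asks. The ranges were 5.00 to 5.54 against 5.69 to 6.67 for Tyrobp and 4.29 to 4.43 against 4.75 to 5.41 for P2ry12. Aif1, Ptprc and Itgam were below the lower quartile of all genes on all 16 arrays. None of 9 lymphocyte markers and 3 of 10 endothelial markers met the 2-fold rule. The part of these cells in the differences between arrays was not tested.

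**Figure D3:**
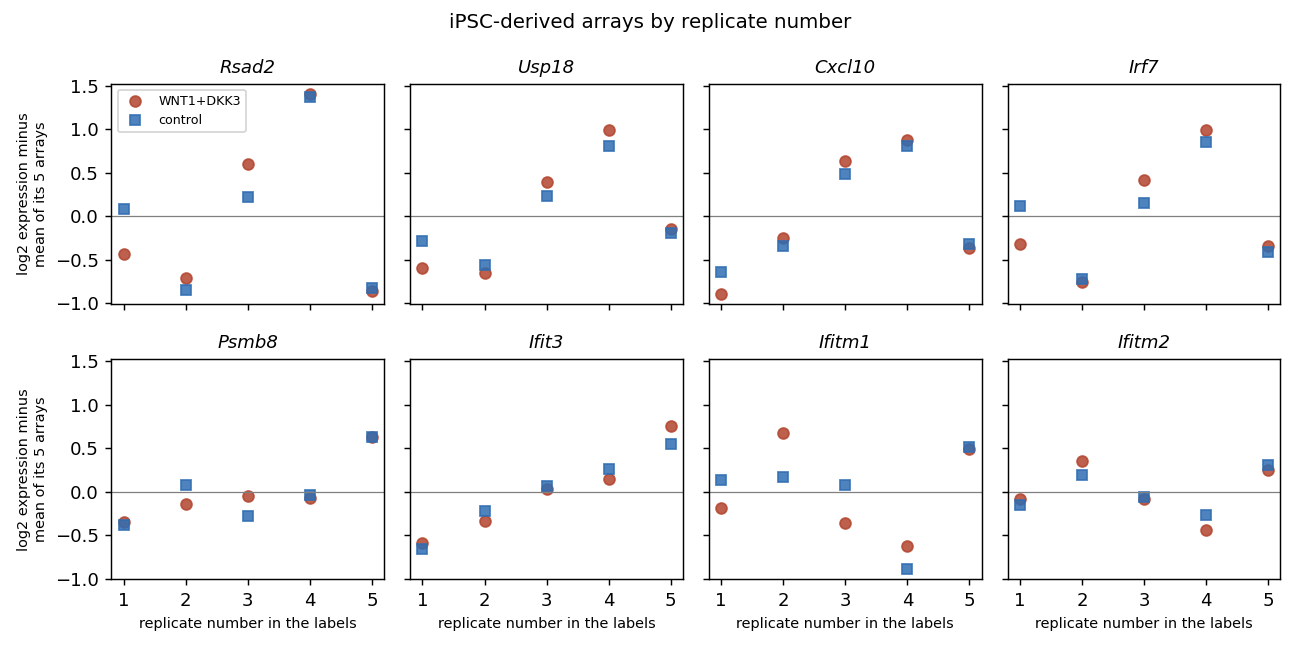
Log2 expression minus the mean of the 5 arrays of the group, by the replicate number in the labels, for treated (circles) and control (squares) iPSC-derived arrays and 8 interferon-stimulated genes. Number 4 is highest in both groups for Rsad2, Usp18, Cxcl10 and Irf7, number 5 for Psmb8 and Ifit3, and number 4 is lowest for Ifitm1 and Ifitm2.

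Whether WNT1 and DKK3 changed these genes is the comparison that did not enter their selection, and none of the 37 passed it. In limma's test on 5 treated against 5 control arrays, with Benjamini-Hochberg adjustment over all genes and a threshold of 0.05, no gene of the set was called, and 0.0% of all genes were. None of the set and 300 of all genes had an unadjusted p under 0.05. The smallest unadjusted p of the set was 0.278, and its adjusted p-values were 1.0 in limma's fit, where the smallest of any gene was 0.753. Treated means were lower for 30 genes and higher for 7, with a median difference of -0.09, while 43.4% of all genes were lower and their median difference was 0.02. That median ranged from -0.22, without treated array 4, to -0.02, without treated array 1. The count of 30 was 21 without treated array 1 or without control array 4.

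Ifih1 had the smallest p among genes that were lower in treated cells, with 6.72, 6.96, 7.57, 7.82 and 6.92 on the treated and 6.78, 7.62, 7.29, 8.04 and 7.78 on the control arrays. The groups overlapped, and the difference was -0.31 (standard error 0.27, 95% interval -0.89 to 0.28). Isg20 read 7.61, 6.94, 8.11, 8.79 and 7.69 on the treated and 8.39, 7.51, 8.06, 8.77 and 8.02 on the control arrays, a difference of -0.32 (95% interval -1.03 to 0.39). Parp14 read 6.42, 7.05, 7.42, 7.88 and 7.49 on the treated and 7.22, 7.40, 7.36, 7.90 and 7.60 on the control arrays, a difference of -0.25 (95% interval -0.78 to 0.28). In both, the treated and control arrays overlapped. Among genes that were higher, Ifi27 read 10.42, 9.99, 10.35, 10.13 and 10.61 on the treated and 10.17, 10.15, 10.38, 10.01 and 10.33 on the control arrays, a difference of 0.10 (95% interval -0.18 to 0.37). Psmb9 read 9.18, 9.03, 9.18, 9.33 and 9.72 on the treated and 9.21, 8.95, 9.15, 9.15 and 9.48 on the control arrays, a difference of 0.10 (95% interval -0.21 to 0.40). For Oasl1, whose arrays are given above, it was 0.10 (95% interval -0.23 to 0.42). Each of these groups overlapped.

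For 35 of the 37 genes, as for 97.1% of all genes, both bounds of the 95% interval were under a 2-fold difference. The exceptions were Rsad2, at -1.18 to 1.07, and Isg20. The median standard error of the set was 0.21, and that of all genes was 0.12. Among the 8 genes with the largest difference from primary neurons the intervals differed in width. They were -0.32 to 0.17 for Ifitm3 and -0.29 to 0.13 for B2m. Wider ones were those of Ifit3 (-0.85 to 0.35), Oasl2 (-0.79 to 0.44) and Ifit1 (-0.8 to 0.45).

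**Figure D4:**
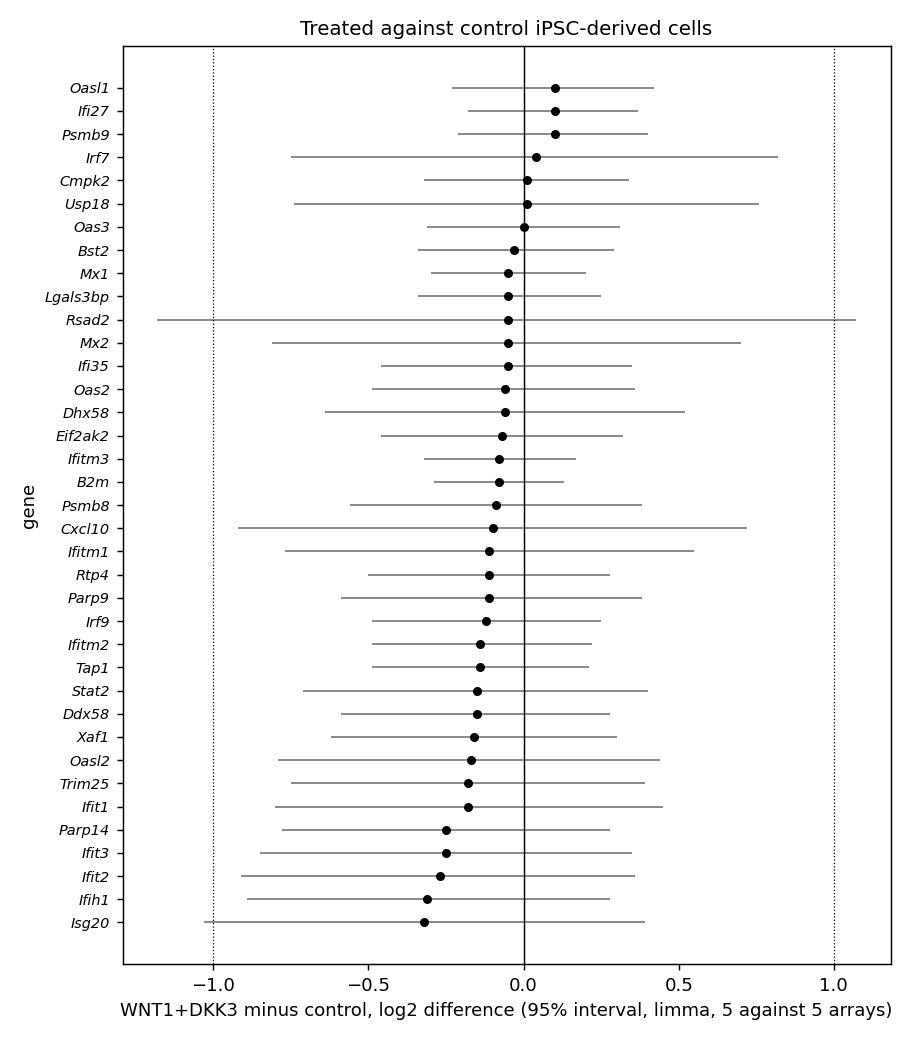
Difference between treated and control iPSC-derived arrays for each of the 37 interferon-stimulated genes on the log2 scale (points) with its 95% interval from limma (bars, 5 against 5 arrays), and dotted lines at a 2-fold difference. Every interval includes 0, and the bars of Rsad2 and Isg20 pass a dotted line.

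Between E13.5 and E14.5, no gene of the set differed at least 2-fold with separate arrays. By that rule 0.176% of all genes were higher and 0.0652% were lower at E14.5. With 1 sample a stage there is no test, and the spread between technical arrays does not cover animals or litters. The median difference was 0.01 for the set and -0.01 for all genes. The largest was that of Ifitm3, 1.78 higher at E14.5, where the arrays named above met, since E14.5 array 1 (4.69) lay below E13.5 array 2 (4.76). B2m was 0.68 higher and Ifi35 0.46 lower at E14.5, from 5.44, 5.81 and 5.96 at E13.5 to 5.30, 5.28 and 5.25 at E14.5. The E13.5 arrays of Ifi35 all exceeded those of E14.5, but by less than the 2-fold rule asks, and so did the E14.5 arrays of B2m those of E13.5. Ifit1 was the last of the 3 genes with separate arrays, with a difference of -0.33. The share of all genes with separate arrays at any size of difference is not given here. Without E13.5 array 2 or without E14.5 array 1, 1 gene met the rule, which was Ifitm3.

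Other genes of the pathway were taken from 5 lists that leave out the set. This contrast of control with primary cells is the one the set was selected on, and the lists were drawn up with that known. The counts and adjusted p-values below are therefore a description and no independent evidence of a direction, above all for the further interferon-stimulated genes, and no test compared the lists with each other. Of 76 measured genes, limma called 47 higher and 4 lower in control iPSC-derived cells, with adjusted p under 0.05. Of all genes 19.3% were called higher and 22.5% lower, a split that became 15.3% and 44.3% when arrays were centred on their median, which moved the median of all genes from -0.11 to -0.30. The fit had 5 treated, 5 control and 2 primary samples, the stage means. The groups shared a common estimate of the spread, which came mostly from the iPSC-derived arrays. The adjusted p-values therefore do not measure the spread between animals, and rest little on that between primary samples. The count of 4 lower genes was 2 without control array 1 and 2 without both arrays numbered 4.

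Of 9 measured interferon genes none was called higher and 3 were called lower. Ifnb1, the interferon that most cell types can make, had a mean of 4.05 ± 0.09 (SD, n = 5) in control cells, 4.08 at E13.5 and 4.27 at E14.5. Its difference of -0.13 did not pass (limma adjusted p = 0.35). Ifnk, a type I interferon best known from skin, had the largest difference, 1.09 (standard error 0.66, limma adjusted p = 0.19). Number 4 was its highest array in both iPSC-derived groups, which held for 1 of the 9 genes and 10.5% of all genes, a like share. Ifna2 and Ifna5 fell by 0.62 and 0.41 (limma adjusted p = 0.029 and 0.042), both members of a family of near-identical copies. The means of Ifnb1 lay below the lower quartile of all genes, which was at least 4.84 on every array. Those of Ifna5, 7.17 in control and 7.58 in primary cells, lay above the median of all genes, which was at most 6.44. No detection call tells whether the transcripts were present.

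Of 17 receptor, kinase, factor and inhibitor genes, 7 were called higher and none lower. The receptor chain gene Ifnar2 rose by 1.54 (standard error 0.34, limma adjusted p = 0.0033), while its partner Ifnar1 differed by -0.08 (adjusted p = 0.64). Il10rb, a chain shared by the type III interferon receptor, rose by 2.53, and the factors Irf1 and Irf2 rose by 2.22 and 1.59 (limma adjusted p = 1.8e-05, 0.00027 and 0.00024). Socs1, a feedback inhibitor of the kinases, differed by -0.04 (adjusted p = 0.84), while Socs3 rose by 1.4 (limma adjusted p = 0.012). Among 12 sensing genes 8 were called higher and 1, Tlr7, lower. Tlr7 differed by -0.38, with means of 3.69 in control and 4.07 in primary cells. Both means lay below the lower quartile of all genes, which was at least 4.84 on every array. Tlr3, an endosomal sensor of double-stranded RNA, rose by 2.35, the adaptor gene Myd88 by 2.25 and Zbp1 by 2.14 (limma adjusted p = 3.0e-06, 2.3e-06 and 0.0077).

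Among 32 further interferon-stimulated genes 26 were called higher and none lower. The galectin gene Lgals9 was higher by 4.74, the GTPase gene Irgm1 by 4.09 and Samd9l by 4.02. These calls are of the kind of gene that the set was selected for, and nothing is read from them. Their means were 10.70 ± 0.31, 9.09 ± 0.49 and 8.16 ± 0.45 (SD, n = 5) in control cells against primary means of 5.96, 5.00 and 4.14. Ifi44l and Epsti1 were among the 6 not called, at -0.08 and 0.04. All 6 measured class I genes were called higher, led by Tapbp (2.53) and Erap1 (2.24), which load and trim peptides, and Psme2 (0.94). Between treated and control cells none of the 76 was called by limma or had an unadjusted p under 0.05, and between the stages none met the 2-fold rule. The array numbered 5 was the highest of both iPSC-derived groups for 21 of the 76 (27.6%) and for 2899 of all 19938 genes, and number 4 for 18 of the 76 (23.7%) and 10.5% of all genes.

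**Figure D5:**
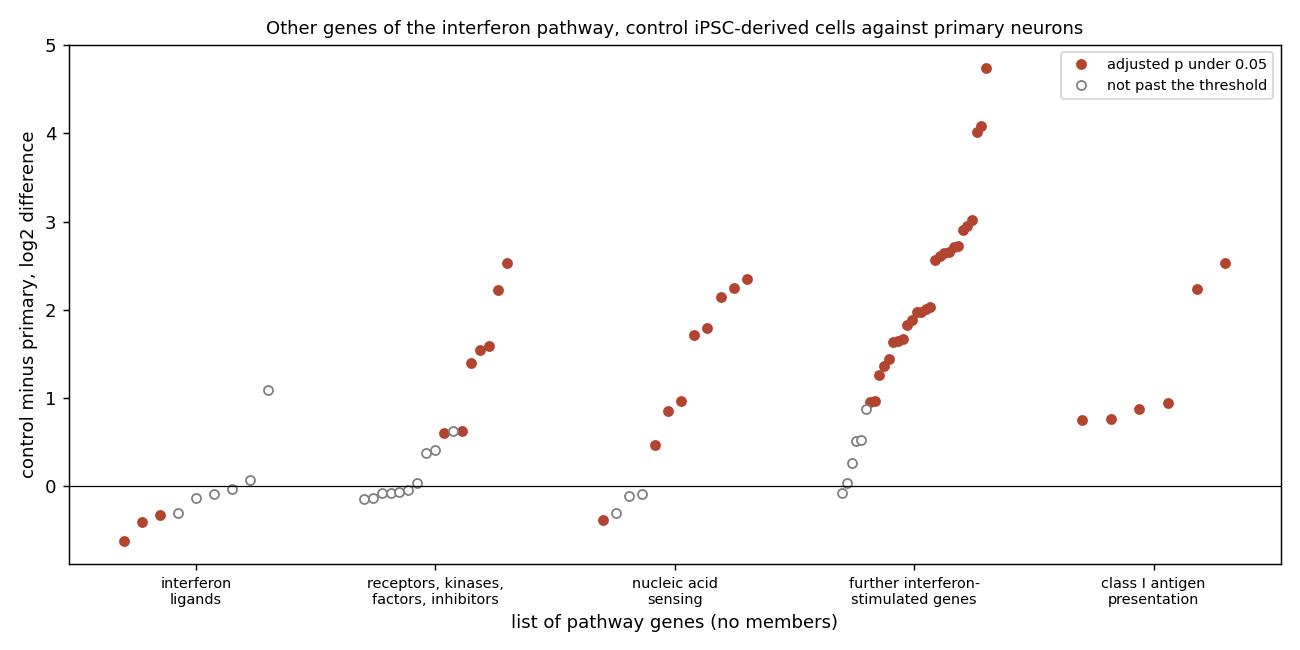
Control iPSC-derived minus primary difference on the log2 scale for 76 other genes of the interferon pathway in 5 lists, with filled points where limma's adjusted p over all genes was under 0.05. No filled point in the ligand list lies above 0, and 26 of 32 further interferon-stimulated genes are filled above 0.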

How the data were processed

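The authors deposited 1 table of log2 expression values for 35556 probe sets of 16 Affymetrix arrays. RNA isolation used RNeasy kits and DNase, and amplification used Ovation PicoSL, a whole-transcript method for small inputs, per the labels' protocols. Per the submitters' processing notes, values were made with RMA in Affymetrix Expression Console 1.2. RMA corrects background, quantile-normalizes arrays and compresses low signals, so small values understate differences. The number of arrays limits the precision.

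Platform annotation named 1 gene for 21789 probe sets and several for 1621, which were left out. The brightest probe set stood for each of 19938 genes, with no filter on low values. Treated and control arrays were compared with limma 3.58.1 (R 4.3.3, lmFit and eBayes, Benjamini-Hochberg over all genes, tested on simulated data). The same tool compared 5 control, 5 treated and 2 primary samples (stage means) for pathway genes. No pair of arrays held identical values. Promoters came from RefSeq, GRCm38.p6.

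The genes, lists and tests were chosen with earlier results of these data known. Described array by array were the 8 largest and 4 smallest differences, the Ifitm family and the transcription factors; between treated and control, the 3 smallest p in each direction; between stages, the 3 largest differences; in each pathway list, the 3 largest differences plus Irf1, Ifnar1, Ifnar2, Ifnb1 and Socs1; in each marker list, the 2 brightest genes where a result touched them. Socs3 was named in addition, as the other Socs gene of its list. Alternatives were another normalization, probe-set rule, filter, fit, fold threshold or stage, and leaving out arrays.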

Additional observations from a re-analysis of the deposited data

Results flagged for a closer look

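Of 74 groups of 5 arrays (37 genes, treated and control), 2 had an array far from the rest by Dixon's criterion, which chance gives in about 1 of 20 groups. Cmpk2 was 6.00 on control array 4, above 5.42 to 5.58 on the other control arrays. Rtp4 was 9.08 on control array 1, below 9.68 to 9.92 on the other control arrays.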

How the results depend on the processing

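No gene of the set was called between treated and control cells in any of 20 other settings. With the replicate number as a replicate block, 0 were called, although Ifit3 (-0.25, 95% interval -0.44 to -0.06) and Isg20 (-0.32, -0.61 to -0.03) had an unadjusted value under 0.05 in limma (adjusted p = 0.999), and of all genes 1 was called and 834 were under 0.05 unadjusted. The interval of Rsad2 then ran from -0.33 to 0.22 in place of -1.18 to 1.07. Equal numbers are not shown to be pairs, since their deviations correlated at 0.045 for number 1 and at 0.435 to 0.798 for the others, and 3 of 5 numbers correlated best with themselves. The 31 genes 2-fold higher than primary became 29 to 32 in the settings that kept the 2-fold threshold. At 4-fold in place of 2-fold the count was 26. The stage count of 0 became 1, that is Ifitm3, without E13.5 replicate 2 or without E14.5 replicate 1 (range 0 to 1) and 1, that is B2m, at 1.5-fold in place of 2-fold. Pathway genes called lower, 4, became 1 with E13.5 alone, 1 with E14.5 alone, 9 with arrays centred on their median, and 2 with control and primary samples only, without both arrays numbered 4 or without the 25% dimmest genes. Leaving out 1 control array gave 2 (without replicate 1) to 5. The causes were not tested. The direction of Psmb9 changed in 1 of 20 settings, and those of Ifih1, Isg20, Parp14, Ifi27 and Oasl1 in none.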
